A study of Mus musculus with 3 samples.

Results

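Chromatin accessibility around 5 early primitive streak genes, Eomes, Mixl1, Gsc, Lhx1 and Mesp1, was examined in 3 ATAC-seq peak lists from mouse cells. Every broad peak that overlapped the gene body (GENCODE M21 annotation, mm10) extended by 50 kb on either side was taken, without regard to its strength. By this rule CEpiLC contributed 71 of its 130348 peaks, SOX2-OFF 62 of 131520 and SOX2-ON 49 of 129843. Peaks that touched or overlapped between lists were joined, which left 89 merged regions of 219473 over the genome: 13 at Eomes, 13 at Mixl1, 22 at Gsc, 22 at Lhx1 and 19 at Mesp1.

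All 3 samples derive from the mouse embryonic stem cell line HM1 TetON, which itself served as the wild type, and were collected at 72 h, on day 3, with 50000 cells each. Cells were kept in bFGF at 10 ng per ml with LGK974 at 5 uM, which blocks WNT secretion, and received the GSK3 inhibitor CHIR99021, which activates the WNT pathway inside the cell, from day 2. SOX2-ON and SOX2-OFF came from Sox2 TetON cells, a picked clone in which the endogenous Sox2 gene was ablated and a doxycycline-inducible Sox2 transgene sits at the Hprt locus with the activator driven from Rosa26. SOX2-ON kept doxycycline at 1 ug per ml, and SOX2-OFF had it withdrawn. CEpiLC (caudal epiblast-like cells) were of wild-type genotype and had no doxycycline. Within the same clone, SOX2-OFF and SOX2-ON differ in doxycycline, so sustained SOX2 and the drug itself cannot be told apart. CEpiLC differs from SOX2-ON in genotype as well as in doxycycline. SOX2-ON was the only sample given the drug, so this limit holds for every region that it alone lacked or held. There was 1 sample per group, so no difference between lists could be tested against replicates, and no RNA was measured in these libraries, so neither gene activity nor the cell type itself could be checked from them.

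The 5 genes encode transcription factors that are switched on as the primitive streak forms and epiblast cells enter mesoderm and endoderm. NODAL signals, relayed by SMAD proteins with their partner FOXH1, and WNT signals, relayed by TCF/LEF factors, are known to activate them. EOMES is a T-box factor needed for definitive endoderm and cardiac mesoderm, MIXL1 and GSC are paired-type homeobox factors of the streak and the organizer, LHX1 is a LIM homeobox factor of the anterior mesendoderm, and MESP1 is a basic helix-loop-helix factor of early cardiac mesoderm. ATAC-seq marks DNA that a transposase can reach, at active and at poised elements alike.

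Because peak height and width depend on depth and enrichment, strength was compared only as rank, the place of a region's best peak in its own list ordered by −log10 p (rank 1 is the strongest). The lists differed in this respect. At rank 20000 the SOX2-ON peak had a −log10 p of 26.4, the SOX2-OFF peak 21.2 and the CEpiLC peak 10.6. Median peak widths were 621, 741 and 526 bp in that order, which is the order of all triplets of values given here. Chromosome 11, which carries Lhx1, held 16.9% of the peaks of CEpiLC but 5.60% of SOX2-ON and 5.67% of SOX2-OFF, so results are also given without Lhx1. Distances are in kb from the gene's annotated start to the middle of the region, negative upstream.

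The sequences below are the central 200 bp of merged regions, on the plus strand of GRCm38 (RefSeq assembly, the same build as mm10). They were scanned on both strands for 9 short words: T-box GGTGTGA, TCF/LEF ATCAAAG, FOXH1 AATCCACA, SOX ACAATNG, OCT ATTTGCAT, GATA factor AGATAAG, CDX/HOX TTTATNG, bicoid-type homeobox TAATCC and LIM-type homeobox TAATTA, where N is any base. The FOXH1 and bicoid-type words can share the letters AATCC, the SOX word with a T at N can match on both strands at once, and TAATTA reads the same on both. The FOXH1 word was found in 4 of the 89 central windows (4.49%, Wilson 95% interval 1.76 to 11%), against 0.775% of all 219473 regions. Those 4 are printed here, with matched words in capitals, because 2 of them lie at the starts of Mixl1 and Gsc. The others were weak and in a single list each, Gsc +14.0 kb in SOX2-OFF at rank 105705 and Mesp1 −8.7 kb in CEpiLC at rank 106103 (rank 1 is the strongest peak).
Mixl1 −0.3 kb, chr1:180697189-180697388: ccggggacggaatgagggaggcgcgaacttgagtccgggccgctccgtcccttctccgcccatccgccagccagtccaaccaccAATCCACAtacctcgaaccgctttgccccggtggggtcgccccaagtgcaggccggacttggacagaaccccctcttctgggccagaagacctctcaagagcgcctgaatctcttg
Gsc −0.3 kb, chr12:104473519-104473718: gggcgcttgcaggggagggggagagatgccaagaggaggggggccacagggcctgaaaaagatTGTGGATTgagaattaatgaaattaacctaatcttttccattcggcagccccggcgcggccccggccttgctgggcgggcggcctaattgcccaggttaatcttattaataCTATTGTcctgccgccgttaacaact
Gsc +14.0 kb, chr12:104459221-104459420: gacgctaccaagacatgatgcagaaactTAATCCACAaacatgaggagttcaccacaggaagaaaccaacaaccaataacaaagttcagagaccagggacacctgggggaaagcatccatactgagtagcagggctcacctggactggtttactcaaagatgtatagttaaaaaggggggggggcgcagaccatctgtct
Mesp1 −8.7 kb, chr7:79802359-79802558: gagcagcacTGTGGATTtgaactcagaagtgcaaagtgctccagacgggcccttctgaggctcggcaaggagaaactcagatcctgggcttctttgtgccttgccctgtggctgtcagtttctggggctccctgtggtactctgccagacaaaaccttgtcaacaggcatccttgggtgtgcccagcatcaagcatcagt

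At the start of Mixl1, the FOXH1 word was centred at −243 bp from the first base of the gene, and the same merged region held TCF/LEF words at −59, −414 and +730 bp. At the start of Gsc, the FOXH1 word was centred at −256 bp and the SOX word of the printed window at −366 bp. In the Gsc +14.0 kb window the capitals cover a FOXH1 and a bicoid-type word that overlap. A match is a run of letters, not a bound site, and occupancy was not measured in these lists.

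The T-box word occurred in 6 of 89 central windows (6.74%, interval 3.13 to 13.9%) against 3.37% of all regions. The LIM-type word was in 5 windows (5.62% against 3.48%) and the bicoid-type word in 5 (5.62% against 5.86%). The SOX word was in 3 (3.37%, interval 1.15 to 9.45%, against 7.20%), the CDX/HOX word in 2 (2.25% against 7.52%) and the GATA word in 2 (2.25% against 2.97%). The TCF/LEF word was in 0 of 89, which allows up to 4.14%, against 3.34%, and the OCT word was in 0 against 1.28%. Over whole regions, the TCF/LEF word was in 16.9% of members against 12.7% and the FOXH1 word in 11.2% against 3.23%, with a median region width of 768 bp for members and 628 bp for all regions. The next pair of central windows is shown for its words. That of Gsc −28.6 kb, listed in SOX2-OFF alone, held 2 T-box words and 1 GATA word. That of Mesp1 +4.6 kb, listed in SOX2-OFF and CEpiLC, held 1 SOX word, while the whole peak in either list held 2 T-box, 2 SOX and 1 GATA words.
Gsc −28.6 kb, chr12:104501869-104502068: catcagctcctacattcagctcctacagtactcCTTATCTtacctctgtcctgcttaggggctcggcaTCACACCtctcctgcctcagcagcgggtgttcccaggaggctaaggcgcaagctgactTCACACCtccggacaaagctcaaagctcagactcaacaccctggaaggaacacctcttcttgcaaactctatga
Mesp1 +4.6 kb, chr7:79789133-79789332: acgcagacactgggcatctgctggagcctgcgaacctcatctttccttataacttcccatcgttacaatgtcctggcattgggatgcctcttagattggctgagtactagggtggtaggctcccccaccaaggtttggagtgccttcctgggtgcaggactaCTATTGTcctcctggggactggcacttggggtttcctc

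Of the upstream regions that differed most between SOX2-ON and SOX2-OFF, 2 are printed below, at Eomes and Mixl1, each as the 200 bp at the centre of its best-ranked peak, that of SOX2-OFF. The Eomes window held none of the 9 words and the Mixl1 window 1 CDX/HOX word. Within the whole SOX2-OFF peak at Eomes −8.9 kb there were 2 LIM-type words and 1 TCF/LEF word, and the shorter SOX2-ON peak held 1 of each. The SOX2-OFF peak at Mixl1 −6.6 kb held 2 TCF/LEF words and 1 CDX/HOX word.
Eomes −8.9 kb, chr9:118468453-118468652: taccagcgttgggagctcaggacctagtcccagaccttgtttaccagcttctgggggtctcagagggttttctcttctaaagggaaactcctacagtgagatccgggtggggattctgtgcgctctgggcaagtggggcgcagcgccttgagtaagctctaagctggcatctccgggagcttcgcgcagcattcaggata
Mixl1 −6.6 kb, chr1:180703178-180703377: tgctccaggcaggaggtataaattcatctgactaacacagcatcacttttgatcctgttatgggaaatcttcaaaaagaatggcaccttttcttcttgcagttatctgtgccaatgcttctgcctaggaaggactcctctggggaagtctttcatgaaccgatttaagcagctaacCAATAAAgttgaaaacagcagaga

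The starts of all 5 genes were listed in all 3 samples, and their ranks differed by less than the 2-fold used here for a call. For comparison, 59.4% of all regions within 1 kb of an annotated start were in all 3 lists. The region at the start of Eomes (chr9:118476336-118479926) ranked 10879 in SOX2-ON and fell to 12330 in SOX2-OFF and 14905 in CEpiLC. The region at Mixl1 (chr1:180696281-180698296) ranked 15865, 11615 and 12598 and was the only start of the 5 that ranked higher in SOX2-OFF and in CEpiLC than in SOX2-ON. The start of Lhx1 (chr11:84522805-84527242), which also covers the start of the divergent noncoding RNA Lhx1os, ranked 11619, 15417 and 16276. The start of Mesp1 (chr7:79792367-79793816) ranked 15543, 19249 and 21254. The start of Gsc (chr12:104470783-104476455), which includes the start of the noncoding RNA Gm10000, was the weakest of the 5, at ranks 21649, 25939 and 22382.

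The starts also differed in width. The start of Eomes was covered by 2014, 3262 and 3591 bp of peak, and Mixl1 by 1363, 1810 and 2016 bp. Gsc had the widest start in SOX2-OFF, with 4236, 5474 and 3962 bp. Lhx1 had 1839 and 1827 bp in SOX2-ON and SOX2-OFF but 4438 bp in CEpiLC. Mesp1 went the other way, with 1395, 1241 and 1154 bp.

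**Figure D1:**
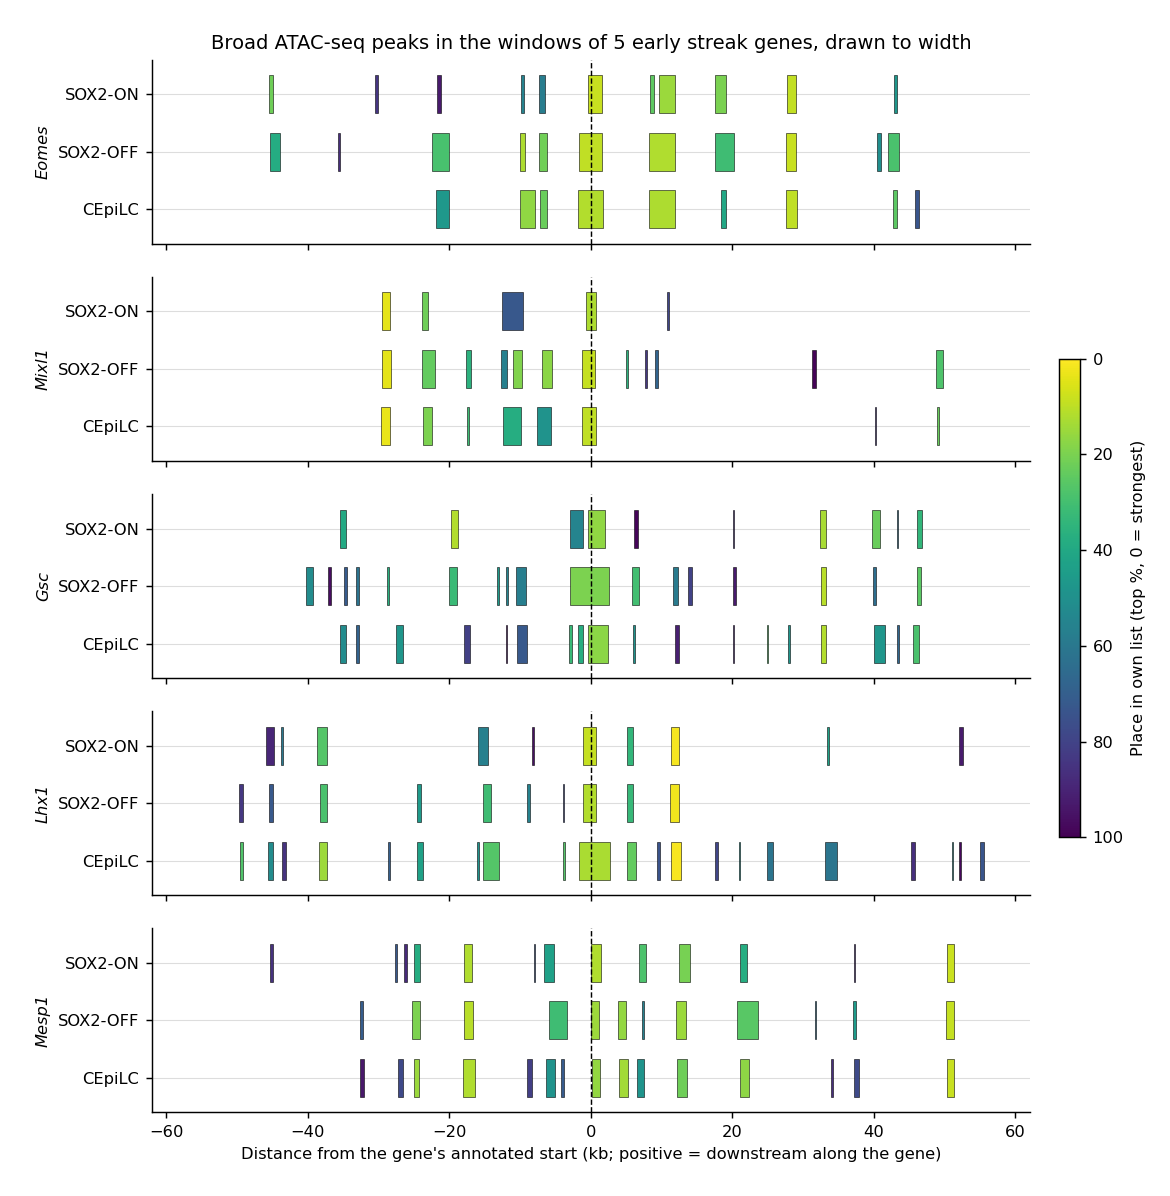
Broad ATAC-seq peaks in the window of each gene, with 1 track for each sample; the horizontal axis is the distance from the annotated start in kb (dashed line at 0, positive along the gene), boxes are drawn to peak width and coloured by place in their own list as top percent. All 5 starts carry a peak in all 3 samples. Mixl1 has more peaks in SOX2-OFF than in SOX2-ON on both sides of its start, and Lhx1 has 21 peaks in CEpiLC against 10 in each other list.

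Outside the 5 gene starts, the lists differed in which regions they held. Of the 89 regions, 44 were intergenic, 19 intronic and 9 over exons, 12 lay at starts of other genes and 5 at the starts of the genes themselves. Of the 12 at other starts, 8 were in all 3 lists. Among the 89, 34 (38.2%, Wilson 95% interval 28.8 to 48.6%) were in all 3 lists, against 27.0% of all merged regions. The interval takes in the 29.8% of regions within 50 kb of a coding gene and the 31.3% of regions outside chromosomes 6, 8 and 11, which hold more peaks in some lists than in others. The intervals cover counting error only, and regions of one gene are not independent of each other.

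Of the regions that SOX2-ON and SOX2-OFF did not share, most were listed in SOX2-OFF. SOX2-OFF listed 25 regions that SOX2-ON lacked (28.1%, interval 19.8 to 38.2%), against 22.0% of all regions. SOX2-ON listed 11 that SOX2-OFF lacked (12.4%, interval 7.04 to 20.8%), against 20.1%. Each share taken alone has an interval that includes its background. Of the 36 member regions in only 1 list of the pair, 25 were in SOX2-OFF (69.4%, interval 53.1 to 82.0%), against 52.2% of all such regions. Without Lhx1 it was 21 of 28 (75.0%, interval 56.6 to 87.3%), against 51.8% outside chromosomes 6, 8 and 11. The 25 had a median rank of 75605 in SOX2-OFF, against 95197 for all regions of that kind, and 6 of them (24.0%) were among its 50000 strongest peaks, against 9.54%. The 11 regions of SOX2-ON had a median rank of 102792, against 89762. The best of the 11 ranked 55581, so 0 of them were among the 50000 strongest peaks of SOX2-ON, against 17.8% of all such regions. A peak that is missing from a list was not detectable at that sample's depth and enrichment, and its DNA need not be closed.

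CEpiLC also held more of the regions that it did not share with SOX2-ON. CEpiLC listed 29 regions that SOX2-ON lacked (32.6%, interval 23.7 to 42.9%), against 27.2% of all regions, and SOX2-ON listed 9 that CEpiLC lacked (10.1%, interval 5.41 to 18.1%), against 27.4%. Of the 38 regions in 1 list of the pair, 29 were in CEpiLC (76.3%, interval 60.8 to 87.0%), against 49.9% of all such regions, and 18 of 26 without Lhx1 (69.2%, interval 50 to 83.5%). That interval includes the 55.1% found over all regions outside chromosomes 6, 8 and 11. Both comparisons share the SOX2-ON sample, so they are not independent of each other. Between SOX2-OFF and CEpiLC, 15 regions were in SOX2-OFF alone of the pair (16.9% against 25.6%) and 21 in CEpiLC alone (23.6% against 23.6%). The SOX2-OFF share of these 36 was 41.7% (interval 27.1 to 57.8%), against 52.0% over the genome, but without Lhx1 it was 14 of 24 (58.3%, interval 38.8 to 75.5%, against 45.7% outside chromosomes 6, 8 and 11). With Lhx1 kept it was 13 of 22 (59.1%) at a −log10 q of at least 2. Of all regions at that minimum, 27.0% were in SOX2-OFF not CEpiLC and 13.9% in CEpiLC not SOX2-OFF, so the background also leaned to SOX2-OFF. In the 50000 strongest peaks of each list the share was 8 of 11 (72.7%), with 16.5% and 15.4% of all regions. Its side of the background thus changed with the chromosome 11 window, and its size also with the weak peaks.

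Read as exclusive patterns, 12 regions (13.5%, interval 7.88 to 22.1%) were shared by SOX2-OFF and CEpiLC and missing from SOX2-ON, against 6.92% of all regions and 8.59% outside chromosomes 6, 8 and 11. The pattern of SOX2-ON and SOX2-OFF without CEpiLC occurred in 2 regions (2.25%, interval 0.618 to 7.83%), against 10.5% and 6.55%. Another 7 regions were in SOX2-ON alone (7.87% against 16.9%), 13 in SOX2-OFF alone (14.6% against 15.1%), 17 in CEpiLC alone (19.1% against 20.3%), and 4 in SOX2-ON and CEpiLC (4.49% against 3.28%). The 12 regions shared by SOX2-OFF and CEpiLC came from Gsc (4), Mixl1 (3), Lhx1 (3) and Mesp1 (2), and Eomes had 0.

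**Figure D2:**
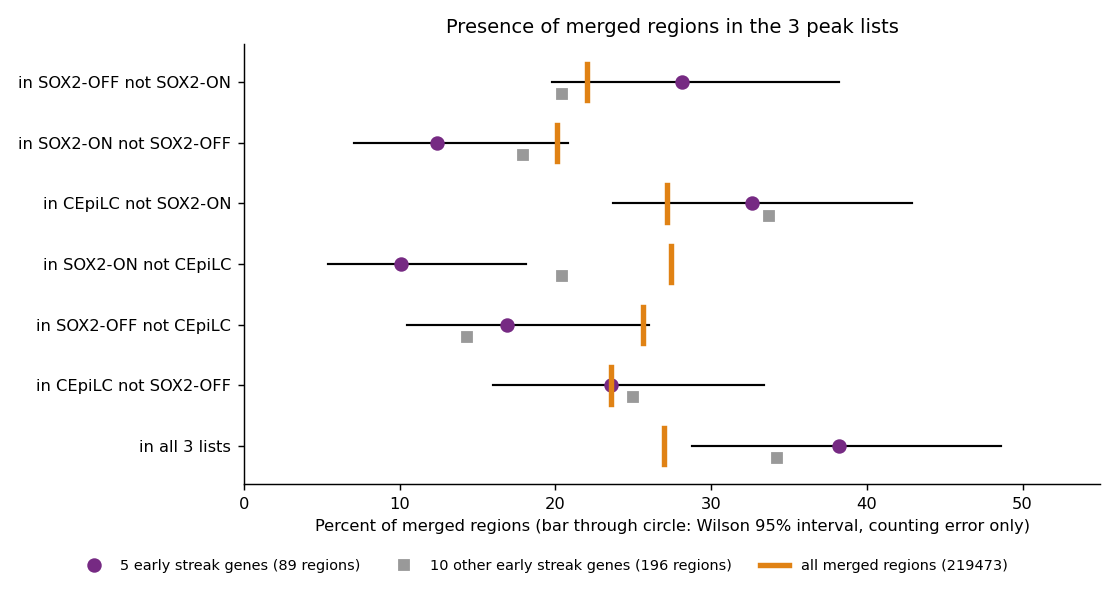
Percent of merged regions with each presence pattern, for the 5 early streak genes (circles, with the Wilson 95% interval as a line), 10 other early streak genes (squares) and all merged regions (vertical bars). The circles lie right of the bar for regions in SOX2-OFF or CEpiLC but not SOX2-ON and left of it for regions in SOX2-ON but not the other list; of the pairwise patterns, the bar falls outside the interval only for regions in SOX2-ON not CEpiLC.

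Among the 36 regions in both the SOX2-ON and the SOX2-OFF list, 5 ranked at least 2-fold higher in SOX2-OFF (13.9%, interval 6.08 to 28.7%), against 6.68% of all shared regions. In the other direction, 3 of 36 ranked at least 2-fold higher in SOX2-ON (8.33%, against 6.03%). All 8 lay more than 1 kb from any annotated start. Against CEpiLC, 6 of 38 shared regions ranked 2-fold higher in CEpiLC than in SOX2-ON (15.8% against 12.8%) and 2 in SOX2-ON (5.26% against 9.46%). Between SOX2-OFF and CEpiLC, 1 of 46 ranked 2-fold higher in SOX2-OFF (2.17% against 6.64%) and 3 in CEpiLC (6.52% against 6.30%), and those 3 all lay in the Lhx1 window. The interval of each of these 6 shares included its background.

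Of the 5 regions that ranked 2-fold higher in SOX2-OFF than in SOX2-ON, 3 lay upstream of Eomes. The gene (chr9:118478212-118486132, plus strand) had 11, 11 and 9 peaks, and 8 of its 13 regions were in all 3 lists. The −8.9 kb region (chr9:118468188-118470338, intergenic), whose SOX2-OFF peak centre is printed above, ranked 72340 in SOX2-ON against 16269 in SOX2-OFF, with CEpiLC at 21521. It moved from the top 55.7% of the SOX2-ON list to the top 12.4% of the SOX2-OFF list, a 4.45-fold difference in rank. Its width was 479, 717 and 2151 bp. The adjacent −6.8 kb region (chr9:118470903-118472010) ranked 75351, 28614 and 29679, and was 2.63-fold higher in SOX2-OFF and 2.54-fold higher in CEpiLC than in SOX2-ON. The −21.2 kb region (chr9:118455809-118458224) ranked 120795, 38293 and 60689, and was 609, 2416 and 1776 bp wide. These 3 upstream regions were picked for a higher rank in SOX2-OFF than in SOX2-ON, so that part of their order was set by the choice. CEpiLC ranked between the other lists at each, and was close to SOX2-OFF at −6.8 kb.

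SOX2-ON stood highest at −44.7 kb (chr9:118432718-118434320), in an intron of the noncoding RNA gene 4933432G23Rik, which ranked 28460 in SOX2-ON and 50592 in SOX2-OFF and was not listed in CEpiLC. The +18.9 kb region, which the selection rule for named regions does not reach and which was picked after its values were seen, ranked 26081, 40963 and 52942. Downstream of Eomes, the regions at +10.0 kb (start of the antisense RNA Gm33460; ranks 19540, 15848 and 16072) and +28.3 kb (start of Golga4, a golgin gene; ranks 11933, 11047 and 12380) differed by at most 1.23-fold between SOX2-ON and either other list. All 9 Eomes regions that SOX2-ON and SOX2-OFF shared were wider in SOX2-OFF, with a median log2 width ratio of 0.70, while 63.0% of all shared regions were wider in SOX2-OFF, with a median of 0.13. Over the Eomes window the peaks of SOX2-ON covered 11 kb, those of SOX2-OFF 19.1 kb and those of CEpiLC 15.7 kb.

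Of the 5 genes, Mixl1 had the largest share of regions listed in SOX2-OFF but not in SOX2-ON. The gene (chr1:180693043-180697034, minus strand) had 5, 12 and 8 peaks, covering 6.66, 11.6 and 9.79 kb. SOX2-OFF listed 7 of the 13 regions without SOX2-ON (53.8%, interval 29.1 to 76.8%), against 22.0% of all regions, and SOX2-ON listed 1 without SOX2-OFF. Those at +31.6, +9.3 and +7.8 kb, in introns or an exon of the neighbouring gene Lin9, were weak, at ranks 130316, 89559 and 110331 in SOX2-OFF. Others downstream ranked 36658 (+49.3 kb, in an intron of Lin9) and 46787 (+5.1 kb, intergenic), and the rest lay upstream. The −6.6 kb region (chr1:180702590-180704637, intergenic), also printed above, was not listed in SOX2-ON, ranked 22800 in SOX2-OFF with 1376 bp, and ranked 63271 in CEpiLC with 1930 bp. The −11.1 kb region (chr1:180706622-180709677) ranked 94743, 24925 and 49576, 3.80-fold higher in SOX2-OFF than in SOX2-ON, although its covered width was largest in SOX2-ON (3027, 2099 and 2655 bp). The −17.3 kb region, named here after its values were seen, was missing from SOX2-ON and ranked 47726 and 41244 in the other lists. These 3 neighbouring regions upstream of Mixl1 were absent or low in SOX2-ON, but −11.1 and −17.3 kb were picked with that difference known. The next region upstream, at −22.9 kb near the start of the pseudogene Gm8101, ranked 28804, 31736 and 25660. It was also added after its values were seen. Farther out, the start of Acbd3 at −28.9 kb (chr1:180725306-180726644), a Golgi protein gene, ranked 5150, 5415 and 4256 and so was strong in every list.

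**Figure D3:**
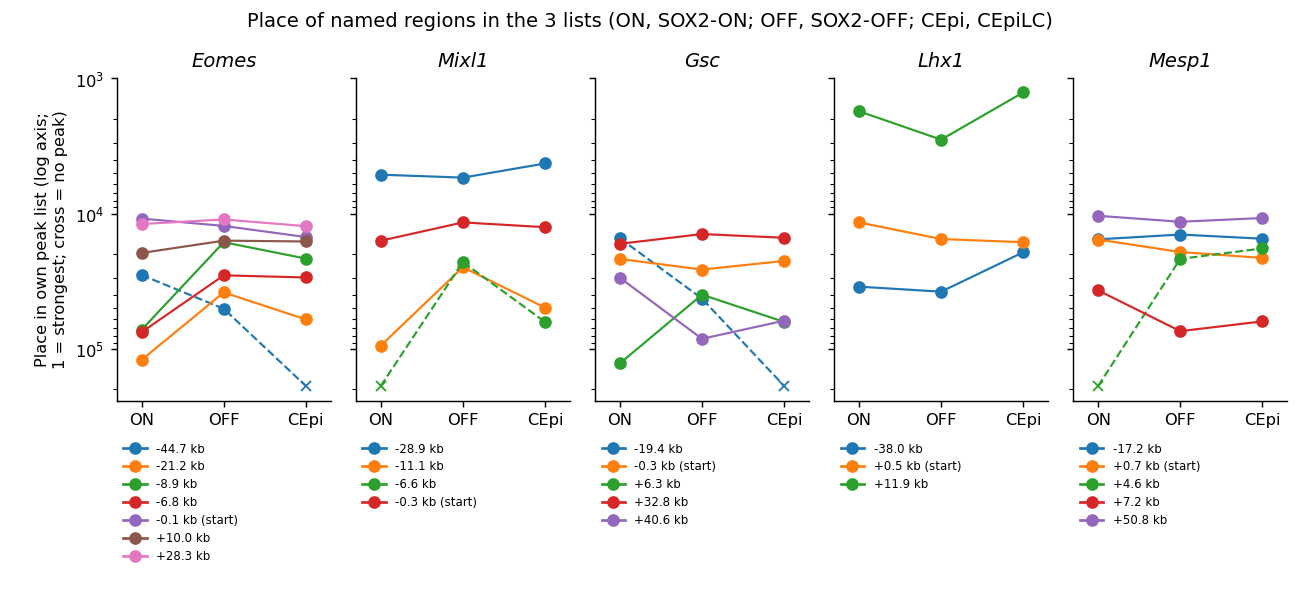
Rank of the named regions of each gene in the 3 lists, on a log axis with the strongest at the top; a cross at the bottom marks a list without a peak and dashed lines lead to it. The starts run nearly flat, Eomes −21.2, −8.9 and −6.8 kb and Mixl1 −11.1 kb rise from SOX2-ON to SOX2-OFF, and Gsc −19.4 kb falls from rank 15219 in SOX2-ON to no peak in CEpiLC.

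Gsc carried differences in both directions. The gene (chr12:104471209-104473330, minus strand) lies in a window in which 18 of 22 regions were intergenic. It had 10, 17 and 18 peaks, covering 9.59, 15.1 and 13.6 kb. SOX2-OFF listed 9 regions that SOX2-ON lacked, and SOX2-ON listed 1 that SOX2-OFF lacked. Of these 10, 90.0% (interval 59.6 to 98.2%) were in SOX2-OFF, against 52.2% of all such regions. The strongest distal element of SOX2-ON was at −19.4 kb (chr12:104492109-104493375), which ranked 15219 there with 934 bp, 42548 in SOX2-OFF with 1136 bp, and was not listed in CEpiLC. That is a 2.80-fold higher rank in SOX2-ON than in SOX2-OFF. The +40.6 kb region (chr12:104431782-104433662) was also higher in SOX2-ON, at ranks 29814, 84415 and 61973, 2.83-fold above SOX2-OFF. Against these, +6.3 kb (chr12:104466574-104467465), downstream of the gene, ranked 128254, 39785 and 63250, and was 3.22-fold higher in SOX2-OFF. The region at +32.8 kb (chr12:104440140-104440907) did not separate the lists, with ranks of 16721, 14164 and 15088. The 4 regions that only SOX2-ON lacked were all weak, with ranks between 71528 and 125803.

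Mesp1 had 1 strong region that only SOX2-ON lacked. The gene (chr7:79792241-79793788, minus strand) had 13, 12 and 15 peaks, covering 11.2, 14.3 and 14.1 kb. The +4.6 kb region (chr7:79788538-79789927), within 1 kb of the start of the pseudogene Gm44705, was not listed in SOX2-ON, ranked 21614 in SOX2-OFF with 1119 bp, and ranked 18098 in CEpiLC with 1274 bp. It was the best-ranked member region that any list lacked entirely apart from Gsc −19.4 kb. Its neighbour at +7.2 kb (chr7:79785961-79787303) was strongest in SOX2-ON, with ranks of 36972, 74072 and 62711, 2.00-fold higher in SOX2-ON than in SOX2-OFF. Upstream, the start of Mesp2, the paralogue of Mesp1, at −17.2 kb (chr7:79810118-79811838) ranked 15504, 14277 and 15334. The shared start of Pex11a and Wdr93 at +50.8 kb ranked 10377, 11491 and 10774. Both differed by at most 1.11-fold between any pair of lists. Of the 19 regions, 4 were listed in SOX2-ON alone (21.1%, interval 8.51 to 43.3%), near the 16.9% of all regions. That was more than at any other of the 5 genes, and these 4 ranked between 94780 and 114246.

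The Lhx1 window differed mainly in CEpiLC. The gene (chr11:84518284-84525535, minus strand) had 10, 10 and 21 peaks, and the covered length was 9.34, 8.31 and 19.1 kb. Of its 22 regions, 8 were listed in CEpiLC alone. Of the 9 regions that SOX2-OFF and CEpiLC shared, 8 ranked higher in CEpiLC and 8 were wider there. These values move with the larger share of chromosome 11 in the CEpiLC list given above, and the part of that excess in them was not tested. The strongest member region in every list was the start of Aatf, a neighbouring gene, at +11.9 kb (chr11:84512856-84514323), with ranks of 1748, 2835 and 1268. The −38.0 kb region (chr11:84562788-84564186, intergenic) ranked 34701, 37802 and 19313. The exonic +5.7 kb region inside Lhx1, named here after its values were seen, ranked 44293, 43654 and 31099. SOX2-OFF listed 4 Lhx1 regions that SOX2-ON lacked and SOX2-ON listed 4 that SOX2-OFF lacked.

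**Figure D4:**
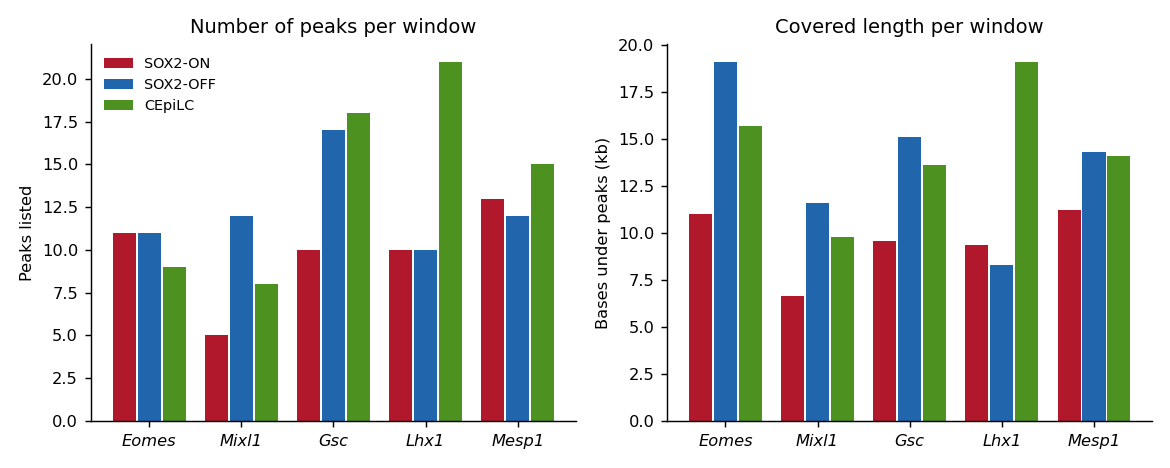
Number of listed peaks (left) and bases under peaks in kb (right) in the window of each gene, with 1 bar for each sample. Covered length is lowest in SOX2-ON at Eomes, Mixl1, Gsc and Mesp1, from 6.66 kb at Mixl1 to 11.2 kb at Mesp1, and at Lhx1 it is 19.1 kb in CEpiLC against 9.34 and 8.31 kb.

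Width also separated the lists over all members. Together the peaks covered 47.8, 68.5 and 72.3 kb, while over the genome they covered 102, 124 and 93.7 Mb. Without Lhx1 the order of SOX2-OFF and CEpiLC turned, with 38.5, 60.2 and 53.2 kb covered by 39, 52 and 50 peaks. Shared member regions had a median log2 width ratio of 0.27 for SOX2-OFF over SOX2-ON, against 0.13 for all shared regions. For CEpiLC over SOX2-ON it was 0.25, against −0.03, and for SOX2-OFF over CEpiLC −0.05, against 0.18. Without Lhx1 these medians were 0.40, 0.24 and 0.10, against 0.11, −0.02 and 0.17 for all shared regions outside chromosomes 6, 8 and 11. By rank, SOX2-OFF stood above SOX2-ON by a median log2 of 0.12 both in members and in all shared regions. In the 23 shared member regions away from any start the median log2 gain in rank was 0.42 and that in width 0.43, against 0.13 and 0.18 for all shared regions away from starts. For CEpiLC over SOX2-ON, the 24 shared member regions away from starts gave 0.38 in rank and 0.22 in width, against 0.17 and −0.11. Without Lhx1, 18 such regions gave 0.21 in rank and 0.22 in width, against 0.20 and −0.07 outside chromosomes 6, 8 and 11. That gain in rank was thus near its background. For SOX2-OFF over SOX2-ON without Lhx1, 19 such regions gave 0.46 in rank and 0.59 in width, against 0.14 and 0.15.

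A list of 10 other early streak genes (Nodal, Wnt3, Foxa2, Sox17, Cer1, Gata6, Mesp2, Evx1, T and Fgf8) served as a further comparison, with 196 merged regions in windows of the same rule, 16 of which are also member regions because Mesp2 lies beside Mesp1. In these, 34.2% of regions were in all 3 lists. Another 24 (12.2%, interval 8.37 to 17.6%) were shared by SOX2-OFF and CEpiLC and missing from SOX2-ON, near the 13.5% of the 5 genes. SOX2-OFF listed 40 regions that SOX2-ON lacked and SOX2-ON 35 that SOX2-OFF lacked, so 53.3% (interval 42.2 to 64.2%) of the differing regions were in SOX2-OFF, against 69.4% for the 5 genes above. The intervals of the shares overlap. CEpiLC listed 66 regions that SOX2-ON lacked and SOX2-ON 40 that CEpiLC lacked (62.3%, interval 52.8 to 70.9%), against 49.9% of all such regions. That interval includes the 55.1% found outside chromosomes 6, 8 and 11. Wnt3, on chromosome 11, gave 13 of the 66 and 3 of the 40. Evx1, on chromosome 6, gave 6 and 11, and neither gene was left out. Of 79 regions shared by SOX2-ON and SOX2-OFF, 12 ranked 2-fold higher in SOX2-OFF (15.2%) and 8 in SOX2-ON (10.1%). The median log2 width ratio of those 79 was 0.26 for SOX2-OFF over SOX2-ON, near the 0.27 of the 5 genes. Their median log2 gain in rank was 0.28, against 0.12 in the 5 genes. For CEpiLC over SOX2-ON the median log2 width ratio was 0.13, and for SOX2-OFF over CEpiLC 0.05.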

How the data were processed

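ATAC-seq was measured in 3 samples, named SOX2-ON, SOX2-OFF and CEpiLC, with 1 per group. The groups were set by the labelled genotype and doxycycline treatment. The authors processed paired-end reads with the nf-core/atacseq pipeline (trimming with Trim Galore, alignment with BWA to mm10, removal of mitochondrial reads) and called broad peaks with MACS2 in each sample. The deposited files give each peak's fold enrichment as a linear ratio, its −log10 p-value and its −log10 q-value. Read depth is not given in the lists, so no value per read was formed. The deposited score column was not used.

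Peaks were ranked by −log10 p within each list, and overlapping or touching peaks of the 3 lists were joined into merged regions with Python 3.11.15 (numpy 2.4.6, pandas 2.3.3, scipy 1.17.1). A region counted as present in a list with any overlapping peak. Shares carry Wilson 95% intervals. Each share was set beside the same share over all merged regions. Starts are within 1 kb of a GENCODE M21 transcript start. Words were searched in the RefSeq GRCm38.p6 genome. Peaks below the lowest listed −log10 q of about 1.00 were not analysed here.

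Named regions were those at the 5 starts, the 2 best-ranked others of each gene, those among the 20000 strongest peaks of a list that another list lacked, and the 5 largest rank ratios in each direction between SOX2-OFF and SOX2-ON among regions in both lists and in the strongest 50000 of either. The genes, lists and words were chosen with earlier results of these data known. The merging and ranking steps were tested on simulated lists. Alternatives were a 25 kb flank, leaving out Lhx1, a −log10 q of at least 2, the 50000 strongest peaks of each list, at least 10% of a region covered, rank by fold enrichment, widest peak, other backgrounds and whole-region word searches.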

Additional observations from a re-analysis of the deposited data

How the results depend on the processing

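The share of differing member regions held by SOX2-OFF rather than SOX2-ON lay between 69.4% and 82.6% over the 6 settings. The genome background depended on the regions chosen: outside chromosomes 6, 8 and 11, 31.3% of regions were in all 3 lists (27.0% over the genome), 19.9% in SOX2-OFF not CEpiLC (25.6%) and 23.1% in SOX2-ON not CEpiLC (27.4%), and the SOX2-OFF share against CEpiLC changed side (45.7%, against 52.0% over the genome). With a 25 kb flank, the windows held 30, 40 and 43 peaks, 49.0% of regions were in all 3 lists, 6.12% were in SOX2-ON not SOX2-OFF, and 14.3% were in CEpiLC not SOX2-OFF. With a −log10 q of at least 2, CEpiLC kept 47 peaks, 6.67% of regions were in SOX2-ON not SOX2-OFF (21.2% of all regions) and 15.0% in CEpiLC not SOX2-OFF (13.9%). Under that minimum, 2 of 29 shared regions ranked 2-fold higher in SOX2-OFF than in SOX2-ON (6.90%, against 5.50%), since 3 of the 5 had weaker peaks in SOX2-ON. With the 50000 strongest peaks of each list, the windows held 25, 35 and 32 peaks, 7.32% of regions were in CEpiLC not SOX2-OFF (15.4% of all regions), and 0% ranked 2-fold higher in SOX2-OFF than SOX2-ON, in SOX2-ON than CEpiLC, or in SOX2-OFF than CEpiLC. These zeros follow from the limit itself, which removes the lower-ranked peak of every such region. Without Lhx1, 14.9% were in CEpiLC not SOX2-OFF (interval 8.31 to 25.3%), which includes the 23.6% of all regions outside chromosomes 6, 8 and 11. Also without it, 0% ranked 2-fold higher in CEpiLC than SOX2-OFF, against 5.67% outside those chromosomes. With Lhx1 kept and rank by fold enrichment, that share was 2.17%, against 7.47% of all shared regions. A minimum cover of 10% of the region changed no member value, and the cause of the other changes was not tested. No paired analysis was possible because there is a single sample in every group. Depth is unknown, and a peak just under the limit of a list is not seen.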

Other observations

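Position and base composition were examined in addition. The 89 regions were spread evenly around the starts, with 45 upstream and 44 downstream, and 66 lay more than 10 kb away. Regions listed in SOX2-OFF but not SOX2-ON had a median G+C content of 52.0% in their central 200 bp, against 47.5% for all regions of that kind, and regions in all 3 lists had 54.8% against 52.5%. Over all members the median was 51.5%, against 49.5% for all regions.

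The regions at the starts of the 5 genes differed in CpG content. The central 200 bp of the start regions held 23 CpG at Mesp1, 20 at Lhx1, 15 at Mixl1, 10 at Gsc and 7 at Eomes, against a median of 2 over all regions and 3 over the members. Of all 219473 regions, 182952 lie away from starts, and no median over start regions alone was formed. The windows of the 5 start regions are centred on the merged region, not on the gene start. Their centres lay at +0.7 kb for Mesp1, +0.5 kb for Lhx1, −0.3 kb for Mixl1 and Gsc, and −0.1 kb for Eomes. The RefSeq promoter table (GRCm38.p6) matched 4 of the 5 genes, all but Mixl1. In the 250 bases before the RefSeq start, Lhx1 had 26 CpG, Gsc 22, Eomes 8 and Mesp1 2, with a median of 6 over 32851 promoters. A TCF/LEF word began 31 bases before the RefSeq start of Mesp1, and 3.21% of the 32851 windows hold that word. From the GENCODE start used elsewhere here, the same match was centred at +170 bp, inside the gene, because the 2 annotated starts differ.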
